A study of Mus musculus with 6 samples.

Results

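The data described here are the 3 arrays of scPARP2 C2C12 cells, out of 6 arrays in the series. C2C12 is an established mouse myoblast line, and scPARP2 cells had received a lentivirus coding a scrambled shRNA as the control for a PARP2-specific shRNA (shPARP2). The samples were grown in high-glucose DMEM with fetal calf serum and were selected with puromycin, as the study's methods state, so they carry the vector and its selection and are not unmodified C2C12 cells. Total RNA of each sample was hybridized to 1 Affymetrix Mouse Gene 1.0 ST array. The sources give neither the confluence at harvest nor whether the samples came from separate cultures, so the spread given here is the spread between these samples and may be technical. The labels also state no measure of proliferation. The arrays of the shPARP2 line enter no value, and no contrast was made and no test run.

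Of 35556 probe sets, 21789 name a single gene, and they cover 19938 genes. The gene value is the log2 signal of its brightest single-gene probe set, given as the mean ± SD of n = 3 arrays. Probe sets bind their targets with unequal strength, so a high or low rank below is a rank of array signal and not of transcript number. A background limit was therefore taken from genes of sensory neurons, whose receptors a myoblast has no known use for: 1027 olfactory, 165 vomeronasal and 34 bitter taste receptor genes had median signals of 5.17, 4.47 and 5.05, and the 95th percentile of these 1226 genes was 6.67. A gene at or under 6.67 is called near background, which does not show that its transcript was absent, and 62 receptor genes lay above it. A gene at or above the 95th percentile of all genes, 11.44, is called high, and the genes between both limits are called intermediate.

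Skeletal muscle is built from myoblasts, which divide, leave the cell cycle, fuse into myotubes and then assemble sarcomeres. Related transcription factors of the basic helix-loop-helix (bHLH) family steer this course: Myf5 and Myod1 commit cells to the lineage, and Myog and Myf6 act mainly in differentiation. They bind E-boxes, short DNA elements of the form CANNTG, together with the partners Tcf3 and Tcf12 and with the Mef2 factors. C2C12 cells are used because they divide in rich serum and differentiate when serum is withdrawn.

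Gene means ran from 2.15 to 14.18 with a median of 7.49. Near background lay 6743 genes (33.8%), 12198 (61.2%) were intermediate and 997 (5.0%) were high, the last by construction. Of the intermediate genes, 3709 (18.6% of all genes) were within 1 log2 unit above the background limit, and 8489 were further above it. On all 3 arrays separately, 19135 genes (96.0%) fell in the same class, and 719 genes had arrays on both sides of the background limit. The distribution had a crowd of genes around the background limit and a broad shoulder of brighter genes above it.

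**Figure D1:**
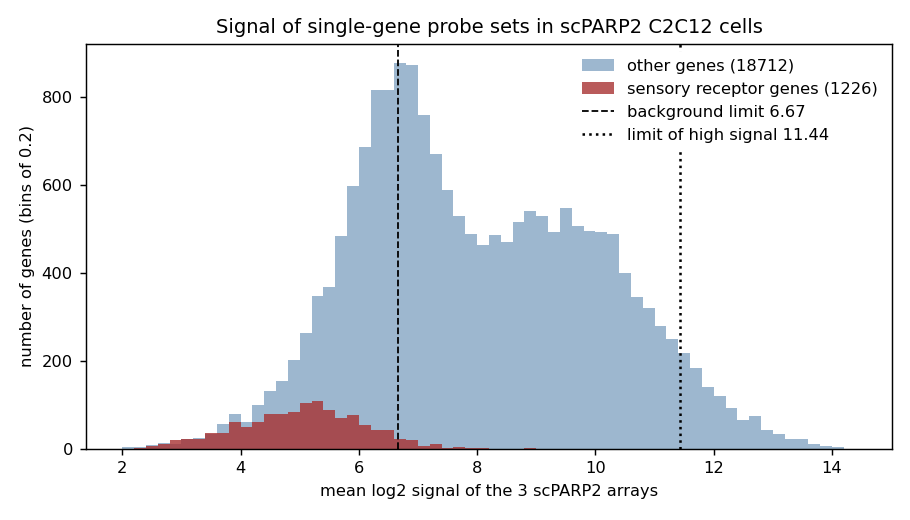
Number of genes (vertical axis, bins of 0.2) by mean log2 signal of the 3 scPARP2 arrays (horizontal axis), with the 1226 sensory receptor genes in red and all other genes in blue. The receptor genes gather around 5, and the dashed and dotted lines mark the background limit (6.67) and the limit of high signal (11.44).

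The 30 genes of highest mean were of several kinds. Eef1a1, the elongation factor that brings aminoacyl-tRNA to the ribosome, headed the ranking and read 14.17, 14.18 and 14.19 on replicates 1, 2 and 3. Fn1, the matrix protein fibronectin, read 13.97, 13.98 and 13.98. Hspa5, the main chaperone of the endoplasmic reticulum, read 13.94, 13.93 and 13.92. For each of these genes the 3 arrays lay within a few hundredths of a log2 unit of one another. Among the 30 genes of highest mean were also the ferritin chains Fth1 (13.89 ± 0.0095) and Ftl1 (13.70 ± 0.0047), the cytoplasmic actin Actb (13.85 ± 0.014), and the autophagy receptor Sqstm1 (13.82 ± 0.011). Translation was further represented by Eef2 (13.77 ± 0.025), Tpt1 and 7 genes of ribosomal proteins (Rpl10, Rplp0, Rps6, Rplp1, Rpl21, Rpl28 and Rpl10a), many of which have near-identical pseudogenes whose transcripts the probes may not separate. Small noncoding RNAs were present with Rn7sk, the 7SK RNA that restrains transcription elongation (14.09 ± 0.019), and Rny3, a Y RNA (13.62 ± 0.080). Thioredoxin Txn1 (13.82 ± 0.019), the galectin Lgals1 (13.68 ± 0.034), the intermediate filament Vim (13.64 ± 0.0074), the metallothionein Mt2 (13.54 ± 0.0014), the respiratory chain subunit Cox6c (13.54 ± 0.0029) and the matrix protein Sparc (13.52 ± 0.049) were in the same set. The inducible cyclooxygenase Ptgs2 had rank 21, at 13.61, 13.56 and 13.59. The order within the set is loose: in 21 of the 29 neighbouring pairs the ranges of the 3 arrays overlapped. The top of the ranking was shared between arrays, and 96 genes were in the top 100 of each.

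The rank of Baiap2l1 rests on a single probe set among several. This gene, an adaptor of membrane and actin remodelling, had rank 2 with 14.16, 14.11 and 14.14, but its 3 single-gene probe sets averaged 14.14, 11.46 and 8.95. All 3 replicates showed the same gap, so the disagreement lies between probe sets and not between arrays.

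The 3 markers of the myoblast were all above background. Myod1, the master regulator of the lineage, read 9.79, 9.85 and 9.82, in the intermediate class and above 79.6% of all genes. Des, the muscle intermediate filament desmin, read 11.81, 11.87 and 11.80 and was high. Cdh15, the muscle cadherin M-cadherin, read 10.28, 10.31 and 10.27 and was intermediate. All of these values lay well above the background limit, which 66.2% of all genes pass. The markers were fixed beforehand, and Des is also listed as a smooth muscle marker, so the identity of the line was not tested by them. The other members of the bHLH family were graded. Myf5 read 9.56, 9.69 and 9.66 and lay close to Myod1. Myog, the differentiation factor myogenin, read 8.93, 9.10 and 9.10, well above the background limit. Myf6 read 6.53, 6.62 and 6.80, with replicates 1 and 2 under the background limit and replicate 3 above it, so its class was not settled by these arrays. The 3 arrays of Myod1 and of Myf5 did not overlap with each other or with those of Myog, but such an order between genes compares different probe sets.

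Of 28 genes listed for myoblast and satellite cell identity, 26 were measured. High were 4 of them (15.4%, against 5.0% of all genes), 19 were intermediate and 3 near background (11.5%, against 33.8%), and the list median was 10.34 against 7.49 for all genes. Besides Des, the high members were dystroglycan Dag1 (11.81 ± 0.023), which ties the cytoskeleton to laminin, and the Mef2 factors Mef2a (11.67 ± 0.043) and Mef2d (11.49 ± 0.039). The other probe set of Mef2d averaged 9.01, in the intermediate class. The bHLH partners Tcf12 (11.35 ± 0.012) and Tcf3 (10.00 ± 0.024) were intermediate. Eya1, a transcription coactivator of the muscle lineage, read 11.47, 11.39 and 11.42 and straddled the limit of high signal. Adhesion molecules of myoblasts followed, with Vcam1 at 11.04 ± 0.069, Ncam1 at 10.97 ± 0.0056 and the laminin receptor subunit Itga7 at 10.57 ± 0.072. Receptors and surface proteins of satellite cells were likewise intermediate: Megf10 at 10.87 ± 0.053, Sdc4 at 10.44 ± 0.030, the receptor of hepatocyte growth factor Met at 10.42 ± 0.027, Cav1 at 10.40 ± 0.073 and Cd34 at 10.06 ± 0.018. Further down lay Six4 (9.57 ± 0.069), Cxcr4 (8.74 ± 0.078), the sarcoglycan Sgca (8.35 ± 0.032) and Sdc3 (7.99 ± 0.0078).

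The lower end of this list by signal held Pax7 and Calcr, while other satellite cell genes given above, such as Megf10, Sdc4 and Cd34, were brighter. Pax7, the paired-box factor that defines satellite cells, read 7.16, 7.19 and 7.20, within 1 unit above the background limit and below the median of all genes. Pax3, its paralog of embryonic muscle, read 6.53, 6.26 and 6.41, and Calcr, the calcitonin receptor of quiescent satellite cells, read 6.54, 6.44 and 6.34, and both were near background on every array. Fgfr4 (7.14 ± 0.094) and the bHLH repressor Msc (6.96 ± 0.11) sat just above the limit, and Eya2 (6.27 ± 0.048) under it. These values are close enough to the limit that another choice of limit moves them between classes. A dim probe set and a scarce transcript cannot be told apart here.

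**Figure D2:**
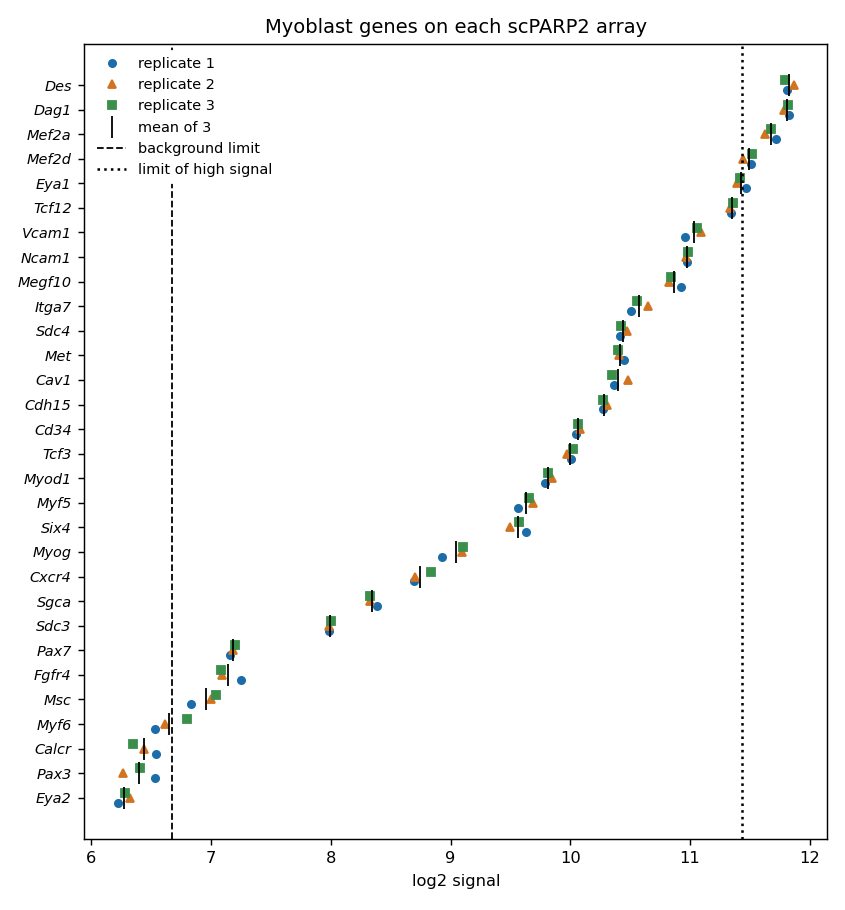
Log2 signal (horizontal axis) of the 30 measured genes of the myogenic bHLH and myoblast identity lists, 1 symbol per scPARP2 array and a vertical tick at the mean of 3. Desmin is at the top (11.82), Myod1, Myf5 and Myog lie between 9.04 and 9.82, and Myf6 is spread across the background limit.

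Sequences upstream of the markers Des and Cdh15, of the bHLH genes Myog and Myf5 and of Chrna1, a muscle gene of high signal, are shown because the bHLH factors bind E-boxes. They are the 250 bases before the annotated start, 5′ to 3′ on the gene's strand, from RefSeq on GRCm38.p6, with every CANNTG in capitals.
Des promoter, chr1:75360042-75360291, plus strand: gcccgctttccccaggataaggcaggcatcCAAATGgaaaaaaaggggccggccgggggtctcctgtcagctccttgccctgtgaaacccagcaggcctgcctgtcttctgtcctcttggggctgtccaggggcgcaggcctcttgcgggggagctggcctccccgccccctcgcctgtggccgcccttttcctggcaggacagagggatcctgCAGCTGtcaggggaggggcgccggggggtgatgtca
Cdh15 promoter, chr8:122848124-122848373, plus strand: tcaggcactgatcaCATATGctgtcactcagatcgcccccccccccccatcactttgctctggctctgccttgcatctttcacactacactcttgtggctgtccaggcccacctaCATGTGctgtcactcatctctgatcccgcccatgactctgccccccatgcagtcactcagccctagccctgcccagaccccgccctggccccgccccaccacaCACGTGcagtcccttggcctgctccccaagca
Myog promoter, chr1:134289754-134290003, plus strand: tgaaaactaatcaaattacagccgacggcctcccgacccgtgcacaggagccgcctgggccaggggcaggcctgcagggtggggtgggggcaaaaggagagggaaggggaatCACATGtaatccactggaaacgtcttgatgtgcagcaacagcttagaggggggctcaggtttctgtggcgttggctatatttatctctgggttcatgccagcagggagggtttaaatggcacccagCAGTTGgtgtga
Myf5 promoter, chr10:107486135-107486384, minus strand: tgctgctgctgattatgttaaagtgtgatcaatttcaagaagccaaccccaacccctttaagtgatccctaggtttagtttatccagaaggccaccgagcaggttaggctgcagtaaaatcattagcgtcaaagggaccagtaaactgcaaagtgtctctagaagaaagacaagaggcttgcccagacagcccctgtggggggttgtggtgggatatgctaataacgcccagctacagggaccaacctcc
Chrna1 promoter, chr2:73580339-73580588, minus strand: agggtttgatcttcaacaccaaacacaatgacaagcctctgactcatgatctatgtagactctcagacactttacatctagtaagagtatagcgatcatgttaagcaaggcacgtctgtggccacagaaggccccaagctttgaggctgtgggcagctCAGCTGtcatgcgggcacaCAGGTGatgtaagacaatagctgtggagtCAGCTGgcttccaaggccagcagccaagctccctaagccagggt
The windows of Des and Myog hold 2 such elements each, those of Cdh15 and Chrna1 hold 3 each, and that of Myf5 holds none. Such matches are common: among 15614 genes with a window of 300 bases (250 before to 50 after the start, 1 window a gene, both strands searched), 68.2% hold a CANNTG, and the share was 76.9% among genes near background, 64.3% among intermediate genes and 60.5% among high genes. A match is a run of letters, not a shown binding site.

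Genes of differentiated muscle were present at lower signals than those of myoblast identity. All 65 genes of the list were measured: 6 were near background (9.23%, against 33.8% of all genes), 57 intermediate, of which 17 were within 1 unit above the limit, and 2 high (3.08%, against 5.0%), with a median of 8.12. The high members were Chrna1, the alpha subunit of the acetylcholine receptor, at 11.74, 11.75 and 11.81, and Acta1, the alpha actin of skeletal muscle, at 11.57, 11.56 and 11.57. The actin genes are near-identical in their coding parts, so Acta1 may hold signal of Acta2 (13.23) or Actc1 (10.42). Next came Musk (11.21 ± 0.062), the kinase that organizes the neuromuscular synapse, Eno3 (11.19 ± 0.089), the muscle enolase, and Cacng1 (10.96 ± 0.045), a subunit of the muscle calcium channel.

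The roles within the list differed in level. Genes of calcium handling and the neuromuscular junction had a median of 9.25 over 13 members, those of the thin filament 8.54 over 15, of the thick filament 7.96 over 15, of muscle metabolism 7.93 over 12, and the mixed group of regulators, fusion genes and their structural partners 7.55 over 10. Among the regulators, Mymk, the membrane protein myomaker that drives fusion, read 10.27, 10.47 and 10.36, while its fusion partner Mymx read 7.71, 7.62 and 7.63. The thick filament held the light chains Myl1 (10.73 ± 0.087) and Myl4 (10.63 ± 0.0090), and its heavy chains ran from Myh1 (7.99 ± 0.081) and the embryonic Myh3 (7.96 ± 0.066) down to Myh4 (6.43 ± 0.15). The heavy chain genes are near-copies in a cluster, and their probes may share targets. In the thin filament, Tnnt2 (10.62 ± 0.14) and Tnnc1 (10.23 ± 0.11), troponins of heart and embryonic muscle, stood above the fast troponins Tnni2 (9.12 ± 0.022) and Tnnc2 (7.87 ± 0.11). The giant sarcomere genes were intermediate, with Ttn at 8.96 ± 0.066 and Neb at 8.54 ± 0.046. The creatine kinase of mature fibres, Ckm, read 8.97, 9.12 and 8.97.

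Most of the dimmest members belong to mature fibres. Sln, the sarcolipin regulator of the calcium pump, read 5.96, 5.82 and 6.01. Myocd, a regulator of heart and smooth muscle, was at 5.97 ± 0.13, the muscle AMP deaminase Ampd1 at 6.18 ± 0.030, the mitochondrial creatine kinase Ckmt2 at 6.35 ± 0.099, and the muscle phosphoglycerate mutase Pgam2 at 6.78 ± 0.029, the last just above the limit. Forms of the same enzymes and pumps that most tissues use were brighter as a set. Of 11 measured, none was near background, 3 were high (27.3%, against 5.0% of all genes) and the median was 10.37. The calcium pump Atp2a2 (13.05 ± 0.0037), Pgam1 (12.37 ± 0.030) and Cox8a (12.01 ± 0.0096) were high, and the deaminase Ampd2 was at 11.17 ± 0.013. The dimmest of them was Ckmt1, the counterpart of Ckmt2, which read 6.96, 6.61 and 6.72, with replicate 2 under the background limit. As a description of their promoters, 27 of 50 muscle differentiation genes with a window (54.0%) hold the letters CAGCTG, a form of CANNTG, against 16.0% of all genes, and 1 of 18 myoblast identity genes (5.56%) does.

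**Figure D3:**
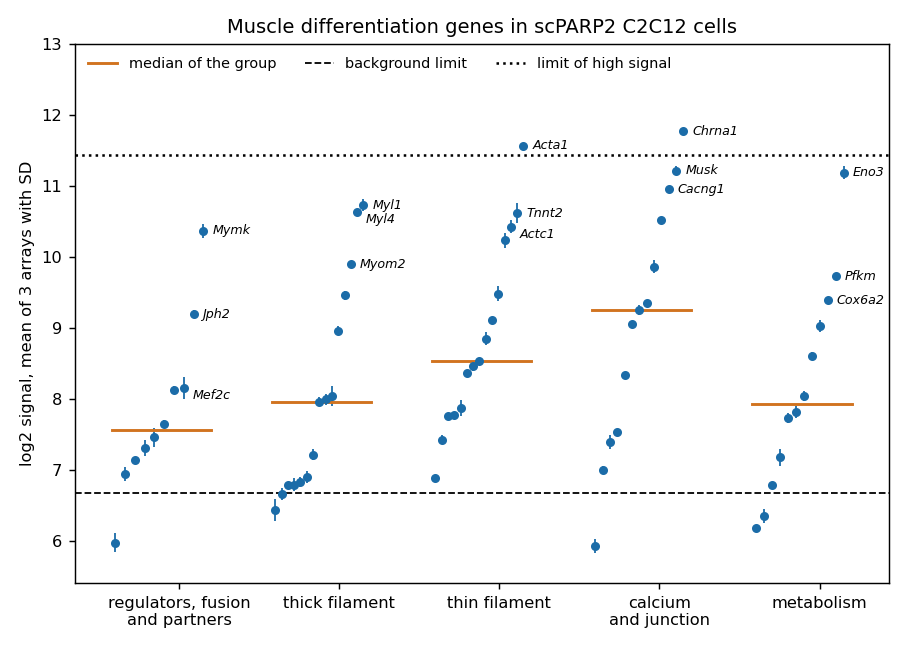
Mean log2 signal with SD (vertical axis, n = 3 scPARP2 arrays) of 65 muscle differentiation genes, 1 point per gene, grouped by role (horizontal axis), with an orange bar at each group's median and the 3 brightest genes of each group named. Only Chrna1 and Acta1 pass the limit of high signal, and the group medians run from 7.55 for regulators, fusion genes and partners to 9.25 for calcium and junction.

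Cell cycle genes were measured almost throughout. Of 47 members, 45 (95.7%) lay above the background limit, against 66.2% of all genes. High were 2 (4.26%), close to the 5.0% of all genes, and the median was 8.55. Cdk4, the kinase that drives entry into S phase with cyclin D, read 13.10, 13.12 and 13.09, and Pcna, the sliding clamp of DNA replication, read 11.78, 11.79 and 11.80. Cyclin D1 (Ccnd1) at 11.13 ± 0.12, Cdk6 at 10.49 ± 0.069 and the licensing factor Cdt1 at 10.28 ± 0.021 were the next. The 20 genes of mitosis had a median of 8.45 and the 16 of DNA synthesis 8.64, with the proliferation marker Mki67 at 8.99 ± 0.088, Top2a at 8.75 ± 0.038 and Cdk1 at 9.68 ± 0.034. Top2a has a second probe set that averaged 3.25, near background, so its class rests on the probe set chosen. Cyclin E2 (Ccne2), at 6.46, 6.64 and 6.28, and the mitotic kinase Ttk, at 6.60, 6.60 and 6.42, were near background on every array. All 10 measured genes of the list of inhibitors and pocket proteins were intermediate, against 61.2% of all genes. Their median was 8.05, and 6 of them lay above the median of all genes (7.49). Mdm2 is counted in this list though it is neither. The p27 gene Cdkn1b (10.68 ± 0.027, with a second probe set at 7.11), the p53 antagonist Mdm2 (10.42 ± 0.015) and the retinoblastoma gene Rb1 (10.11 ± 0.041) were well above the limit. The INK4 and p57 genes lay within 1 unit above it, with Cdkn1c at 7.42 ± 0.083, Cdkn2d at 7.29 ± 0.036, Cdkn2a at 7.27 ± 0.054 and Cdkn2b at 7.25 ± 0.12. In bulk samples, fewer cells of a kind and less RNA per cell cannot be told apart, so these signals give no share of dividing cells.

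Among growth factor genes the receptors were brighter as a set than the ligands and antagonists, a group that also holds the binding protein gene Igfbp5. The medians were 10.18 over 16 genes and 9.23 over 15. Of all 31, 4 were high (12.9%, against 5.0% of all genes). They were Igfbp5, a binding protein of insulin-like growth factors that myoblasts secrete (12.99, 12.98 and 12.94), the vascular growth factor Vegfa (12.25 ± 0.050), and the receptors Fgfr1 (12.24 ± 0.0085) and Pdgfrb (11.69 ± 0.021). The BMP receptor Bmpr1a was at 11.14 ± 0.014. Mstn, the muscle growth inhibitor myostatin, was the only member near background, at 5.64, 5.55 and 5.48, while its receptor gene Acvr2b was intermediate at 7.88 ± 0.031. Igf1 (6.94 ± 0.18), Igf2r (6.73 ± 0.051) and Fgfr2 (6.69 ± 0.024) were close above the limit, with replicate 1 of Fgfr2 under it. In the Notch pathway, which holds satellite cells undifferentiated, the receptor Notch2 (11.04, 10.98 and 10.97) and the ligand Jag1 (10.20 ± 0.027) were bright, and the target genes Hey1 (7.16 ± 0.060), Heyl (6.93 ± 0.021) and Hey2 (5.69 ± 0.081) were within 1 unit of the background limit or below it. Rbpj, the DNA-binding partner of Notch, was high at 11.98 ± 0.039, but its other probe set averaged 5.98, so the class rests on the probe set chosen.

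Matrix genes were a leading group. Of 41 measured, 13 were high (31.7%, against 5.0% of all genes), 26 intermediate and 2 near background (4.88%, against 33.8%), with a median of 10.94. After Fn1 and Sparc came biglycan Bgn (13.39 ± 0.028), the collagen hydroxylase subunit P4hb (12.77 ± 0.014) and the metalloproteinase inhibitor Timp3 (12.61 ± 0.021). The collagens had a median of 9.78 over 13 genes, and the enzymes and chaperones that process them 11.57 over 12. Type I collagen read 11.61, 11.63 and 11.59 in its alpha 2 gene Col1a2 and 9.92, 9.92 and 9.99 in its alpha 1 gene Col1a1. The small proteoglycan Lum, lumican, read 4.05, 3.99 and 3.84 and was among the dimmest 2.25% of all genes, whereas its relative Dcn, decorin, was high at 11.55, 11.60 and 11.59. Col10a1, a collagen of growth plate cartilage, was near background (6.41 ± 0.046) and the gelatinase Mmp9 just above it (6.99 ± 0.096).

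The integrins, which connect matrix and cytoskeleton, were split. Itgb5 (12.15 ± 0.011) and Itgb1 (11.90 ± 0.030), the common beta chain, were high, and the receptor chains for fibronectin, vitronectin and laminin Itga5 (11.35 ± 0.036), Itgav (11.15 ± 0.049) and Itga3 (10.23 ± 0.013) were intermediate. Near background were 6 of 16, among them Itga4 (6.10 ± 0.068), Itga8 (5.84 ± 0.018), Itga9 (6.12 ± 0.078) and the epithelial Itgb6 (6.08 ± 0.17), a share of 37.5% against 33.8% of all genes. The cytoskeleton list had 19 high genes of 36 (52.8%, against 5.0% of all genes) and a median of 11.62. The actin-severing Cfl1 (12.97 ± 0.015) and the S100 protein S100a11 (12.84 ± 0.018) followed Actb, Lgals1 and Vim. The neuronal tubulin Tubb3 was the only member near background (6.23 ± 0.072), and the nonmuscle myosin Myh10 (7.24 ± 0.037) was within 1 unit above the limit. The intermediate filament of progenitor cells, nestin (Nes), was at 10.48 ± 0.13.

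Most of the chaperone and translation factor genes measured were high. Of 16 chaperones, 14 were high (87.5%, against 5.0% of all genes) and none near background. After Hspa5 came the cytosolic Hspa8 (13.61 ± 0.025) and the reticulum proteins Calr (13.58 ± 0.0040), Canx (13.45 ± 0.021) and Hsp90b1 (13.41 ± 0.0052). The inducible heat shock gene Hspa1a was the dimmest of them, at 7.62, 7.68 and 7.72, and shares its sequence almost wholly with Hspa1b. The small heat shock protein of muscle Cryab was at 11.01 ± 0.11. Of 12 translation factors, 9 were high (75%, against 5.0% of all genes). Their dimmest was Eef1a2 (7.76 ± 0.034), the form that replaces Eef1a1 in mature muscle and neurons. In glycolysis 9 of 23 genes were high (39.1%, against 5.0% of all genes). Aldolase Aldoa (13.43 ± 0.014), the hexokinase Hk1 (13.01 ± 0.043), Pgk1 (12.85 ± 0.010), the glucose transporter Slc2a1 (12.68 ± 0.023) and Pgam1 led. The other probe set of Hk1 averaged 9.80, in the intermediate class. Forms of other tissues were close to the background limit, with the pyruvate kinase of liver and red cells Pklr at 6.97 ± 0.034, the lactate dehydrogenase chain of heart Ldhb at 6.97 ± 0.12, and that of testis Ldhc at 5.88 ± 0.040. The insulin-responsive transporter of muscle and fat, Slc2a4, read 7.00, 7.02 and 7.01, within 1 unit above the limit.

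The genes of the NRF2 system, the subject of the article that used these arrays, were measured above the background limit in the control line. NRF2, the product of Nfe2l2, is a transcription factor that pairs with small Maf proteins on antioxidant response elements and is held in check by Keap1, which hands it to the ubiquitin ligase Cul3. Nfe2l2 read 12.42, 12.36 and 12.34 and was high. Keap1 read 8.93, 8.97 and 8.89 and Cul3 11.35, 11.40 and 11.36, both intermediate. Among the small Maf genes, Mafg (10.48 ± 0.032) was the brightest, Mafk was at 9.16 ± 0.020 and Maff at 8.58 ± 0.048, and the competing repressor Bach1 was at 10.37 ± 0.046. The article, by contrast, could not detect Maff mRNA by RT-qPCR in this cell model. Whether the signal of the Maff probe set comes from its transcript was not tested. All 31 measured genes of the list were above the background limit, against 66.2% of all genes. Of them 18 were high (58.1%, against 5.0%), and the median was 11.77. Of the 7 regulators 1 was high, with a median of 10.37, and of the 24 antioxidant enzymes and related proteins 17 were high, with a median of 11.95. After Txn1 and Mt2 the brightest members were superoxide dismutase Sod1 (12.65 ± 0.065), the glutathione transferase Gsta4 (12.63 ± 0.054) and the metallothionein Mt1 (12.63 ± 0.014). Heme oxygenase Hmox1 (12.61, 12.31 and 12.48), catalase Cat (12.19, 12.20 and 12.19) and mitochondrial Sod2 (11.68, 11.68 and 11.68) were high on every array. The classic NRF2 target Nqo1 was intermediate (11.01, 10.99 and 10.93). The extracellular Sod3 (8.64 ± 0.071), the brain metallothionein Mt3 (8.35 ± 0.024) and the plasma peroxidase Gpx3 (7.34 ± 0.14) were the dimmest of these 24. Glutathione transferases and metallothioneins are families of close copies, and their probes may share targets.

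The letters TGACNNNGC, the core of the antioxidant response element, occur in the 300-base window of 10 of 26 listed genes (38.5%), of 18.5% of high genes and of 13.2% of all 15614 genes, on either strand. The windows of 3 listed genes are shown because they cover the factor itself, a glutathione synthesis subunit and the metallothionein with the brightest signal, each with the core in capitals, as 250 bases before the start on GRCm38.p6 from RefSeq.
Nfe2l2 promoter, chr2:75704664-75704913, minus strand: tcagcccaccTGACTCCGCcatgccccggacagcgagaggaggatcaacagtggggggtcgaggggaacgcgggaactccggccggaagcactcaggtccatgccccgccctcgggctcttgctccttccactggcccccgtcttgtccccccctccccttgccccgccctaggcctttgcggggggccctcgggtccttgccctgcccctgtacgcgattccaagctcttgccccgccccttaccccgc
Gclm promoter, chr3:122245307-122245556, plus strand: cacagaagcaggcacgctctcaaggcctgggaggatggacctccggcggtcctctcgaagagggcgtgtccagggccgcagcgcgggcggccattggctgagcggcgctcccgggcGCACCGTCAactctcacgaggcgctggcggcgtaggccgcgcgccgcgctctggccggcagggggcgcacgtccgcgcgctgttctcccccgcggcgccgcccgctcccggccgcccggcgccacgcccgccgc
Mt2 promoter, chr8:94172368-94172617, plus strand: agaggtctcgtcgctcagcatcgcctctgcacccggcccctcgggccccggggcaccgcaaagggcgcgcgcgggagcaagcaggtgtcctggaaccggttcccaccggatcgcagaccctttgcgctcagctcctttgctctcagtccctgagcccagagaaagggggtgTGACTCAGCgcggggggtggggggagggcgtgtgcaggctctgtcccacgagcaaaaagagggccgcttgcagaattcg
Gclm, the regulatory subunit of glutamate-cysteine ligase, read 11.92, 11.70 and 11.82 and was high. Each of the 3 windows shown holds 1 match, so they do not stand for the whole list. The 250 bases before the start of Nqo1, Cat, Srxn1 and Txn1, for example, hold none. No binding was measured.

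The ADP-ribosyltransferases, the family of PARP2, were all measured at intermediate levels. PARP2 is a DNA damage-activated enzyme that attaches ADP-ribose chains to proteins, and its gene, the target of the other line, read 8.94, 9.13 and 9.05 in the control cells, above 69.6% of all genes. Parp1, the main enzyme of the family, read 8.75, 8.82 and 8.76. Of 16 measured family members, including the hydrolases that remove ADP-ribose, none was near background and none high, with a median of 9.24. Over all genes these shares were 33.8% and 5.0%. The tankyrases Tnks2 (11.40 ± 0.047) and Tnks (10.76 ± 0.012) and the mono-ADP-ribosyltransferase Parp8 (10.91 ± 0.041) were brightest, and Tiparp (9.89 ± 0.057) and the hydrolase Parg (9.58 ± 0.066) followed. Parp9 (8.05 ± 0.029), Parp11 (7.46 ± 0.057), Parp14 (7.46 ± 0.054) and Parp16 (7.25 ± 0.15) were dimmest. The genes used as references in the article's RT-qPCR, 36B4 (Rplp0, 13.75 ± 0.032) and the cyclophilin gene Ppib (13.18 ± 0.015), were both high.

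RNA regulators of muscle were bright. Of 15 splicing factors, 5 were high (33.3%, against 5.0% of all genes). They were the muscleblind genes Mbnl2 (12.46 ± 0.044) and Mbnl1 (12.13 ± 0.031), quaking Qk (12.05 ± 0.0037), and Ptbp1 (11.89 ± 0.026) and Hnrnpu (11.81 ± 0.034). The other probe sets of Qk averaged 9.04 and 7.65 and that of Ptbp1 11.32, all intermediate, so both high calls rest on the probe set chosen. The regulators of mature muscle were dimmer, with Rbm20 at 9.15 ± 0.025, Rbm24 at 8.51 ± 0.069 and Rbfox1, the only one near background, at 6.53, 6.55 and 6.55.

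The genes of the muscle microRNAs, small RNAs that are enriched in skeletal or heart muscle, were all near background: 7 of 7 measured, against 33.8% of all genes and 196 of all 298 microRNA genes (65.8%). Probe sets of this array on microRNA genes read longer precursor transcripts and not the mature molecule, so these values do not give the amount of mature microRNA. Mir206 read 3.92, 3.67 and 3.92, Mir499 5.31 ± 0.21, Mir208a 4.97 ± 0.17, Mir1a-1 3.46 ± 0.20 and Mir1a-2 2.65 ± 0.19, while Mir133a-2 was at 5.01 ± 0.34 and Mir133a-1 at 4.59 ± 0.21. Of 13 genes of other microRNAs, most of them known from dividing cells, 7 were intermediate and 6 near background. The cluster of Mir23a (8.25, 8.21 and 8.19), Mir27a (8.51, 8.34 and 8.34) and Mir24-2 (8.13, 8.01 and 8.18) and the gene Mir31 (7.90 ± 0.046) were the brightest. In the cluster that holds Mir17, the genes spread from Mir18 (7.45 ± 0.12) to Mir19a (5.30 ± 0.13) with Mir17 itself at 6.48 ± 0.094 and Mir20a at 5.89 ± 0.20. The mature sequences are given, from RefSeq on GRCm38.p6, to set the muscle microRNAs beside those of the brighter cluster, with the seed (bases 2 to 8) in capitals.
miR-206-3p, chr1:20679055-20679076, plus strand: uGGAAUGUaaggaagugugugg
miR-499-5p, chr2:155622893-155622913, plus strand: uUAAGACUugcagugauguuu
miR-208a-3p, chr14:54949072-54949093, minus strand: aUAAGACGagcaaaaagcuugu
miR-23a-3p, chr8:84208563-84208583, plus strand: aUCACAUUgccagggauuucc
miR-27a-3p, chr8:84208727-84208747, plus strand: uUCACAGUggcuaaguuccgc
miR-24-3p, chr8:84208875-84208896, plus strand: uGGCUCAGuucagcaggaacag
miR-17-5p, chr14:115043684-115043706, plus strand: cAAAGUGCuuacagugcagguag
miR-20a-5p, chr14:115044183-115044205, plus strand: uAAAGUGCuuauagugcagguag
The seeds of miR-17-5p and miR-20a-5p are the same, AAAGUGC, and the other 6 differ from it and from one another.

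Markers of other lineages were mostly near or close to the background limit. Of 89 measured markers of other cell types (adipocyte, osteoblast and chondrocyte, cardiomyocyte, leukocyte, endothelium, epithelium, neuron and glia, hepatocyte, and pluripotent and germ cells), 47 were near background (52.8%, against 33.8% of all genes), 32 were within 1 unit above the limit and 1 was high. Single transcription factors and enzymes stood out. The high marker was Lpl, lipoprotein lipase, at 12.04, 12.07 and 12.07, and Pparg, the regulator of fat cell formation, read 10.60, 10.57 and 10.54, while the mature fat cell genes Adipoq (5.05 ± 0.15) and Fabp4 (5.28 ± 0.10) were near background. Sox9, the cartilage regulator, read 11.28, 11.20 and 11.21, while its targets Col2a1 and Acan were at 8.25 ± 0.040 and 6.52 ± 0.094. The heart factors Gata4 (9.59, 9.51 and 9.56) and Nkx2-5 (8.79, 8.85 and 8.89) were intermediate, with the cardiac heavy chain Myh6 near background (6.26 ± 0.11). For leukocytes, Ptprc was at 6.06 ± 0.13, Adgre1 at 5.42 ± 0.10 and Ms4a1 at 4.79 ± 0.27, all near background, and Cd68 at 8.10 ± 0.084. Endothelial Pecam1 (6.25 ± 0.052), epithelial Epcam (6.10 ± 0.10), neuronal Snap25 (6.53 ± 0.045), hepatic Alb (5.35 ± 0.17) and germ cell Ddx4 (5.20 ± 0.14) were near background. By list, 27.3% of 11 neural markers were near background, against 33.8% of all genes. The share was 37.5% of 8 osteoblast and chondrocyte, 40% of 10 cardiomyocyte and 44.4% of 9 endothelial markers. It was 50% of 10 adipocyte, 60% of 10 epithelial and 60% of 10 hepatocyte markers. Of 11 leukocyte markers 63.6% were near background, and of 10 pluripotency and germ cell markers 90%. Above the limit lay, for example, Krt8 (7.95), Flt1 (7.84), Foxa2 (7.42) and Map2 (7.32).

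Smooth muscle and fibroblast markers were less often near background than the markers above. Of 10 smooth muscle markers 3 were high (30%, against 5.0% of all genes), Acta2 (13.22, 13.24 and 13.23), Des and caldesmon Cald1 (11.73 ± 0.033). The regulator Myocd (5.97 ± 0.13) was the only 1 near background (10%, against 33.8%). The later markers Myh11 (7.16 ± 0.10) and Cnn1 (6.69 ± 0.068) lay within 1 unit above the background limit, with replicate 2 of Cnn1 under it. Of 12 fibroblast markers, 1 was high (8.33%, against 5.0% of all genes), namely Dcn. Near background were 2 (16.7%, against 33.8%), Fap (5.54, 5.49 and 5.11) and Lum. The list median was 7.90, against 7.49 for all genes, and 3 members lay within 1 unit above the limit. Among the 9 intermediate members were Postn (11.37 ± 0.047), Prrx1 (10.50 ± 0.054) and Twist2 (10.08 ± 0.053). Whether cells of another type contributed was not tested.

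Among the Hox genes, which record the body position of a cell's origin, none of 37 was high and 11 were near background (29.7%, against 33.8% of all genes). The brightest were of the C and A clusters, Hoxc10 (9.96 ± 0.018), Hoxc6 (8.93 ± 0.078), Hoxa10 (8.91 ± 0.058), Hoxa7 (8.84 ± 0.072) and Hoxa9 (8.84 ± 0.026), and the D cluster gene Hoxd8 was the dimmest (5.86 ± 0.087). Of 22 interferon response genes, B2m, the light chain of class I MHC, was high (13.26 ± 0.030), Ifit3 (10.38 ± 0.031), Ddx58 (10.26 ± 0.023) and Stat2 (9.94 ± 0.049) were intermediate, and Mx1 (5.53 ± 0.058), Rsad2 (6.41 ± 0.082) and Mx2 (6.61 ± 0.044) were near background. Tlr3 read 6.68, 6.67 and 6.60, with replicates 1 and 2 just above the background limit and the mean under it. Cells without the vector were not analysed here. Xist, the RNA that coats an inactive X chromosome, read 12.91, 12.77 and 12.91 and was high. Of 6 measured genes of the Y chromosome, 5 were near background, from Kdm5d (5.66 ± 0.14) to Eif2s3y (3.33 ± 0.098), and Sry read 7.82, 7.73 and 7.84. Imprinted Peg3 (10.52 ± 0.046) and Peg10 (10.51 ± 0.039) were intermediate and Grb10 (5.90 ± 0.20) near background. Meg3 read 6.70, 6.66 and 6.55, on both sides of the limit.

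**Figure D4:**
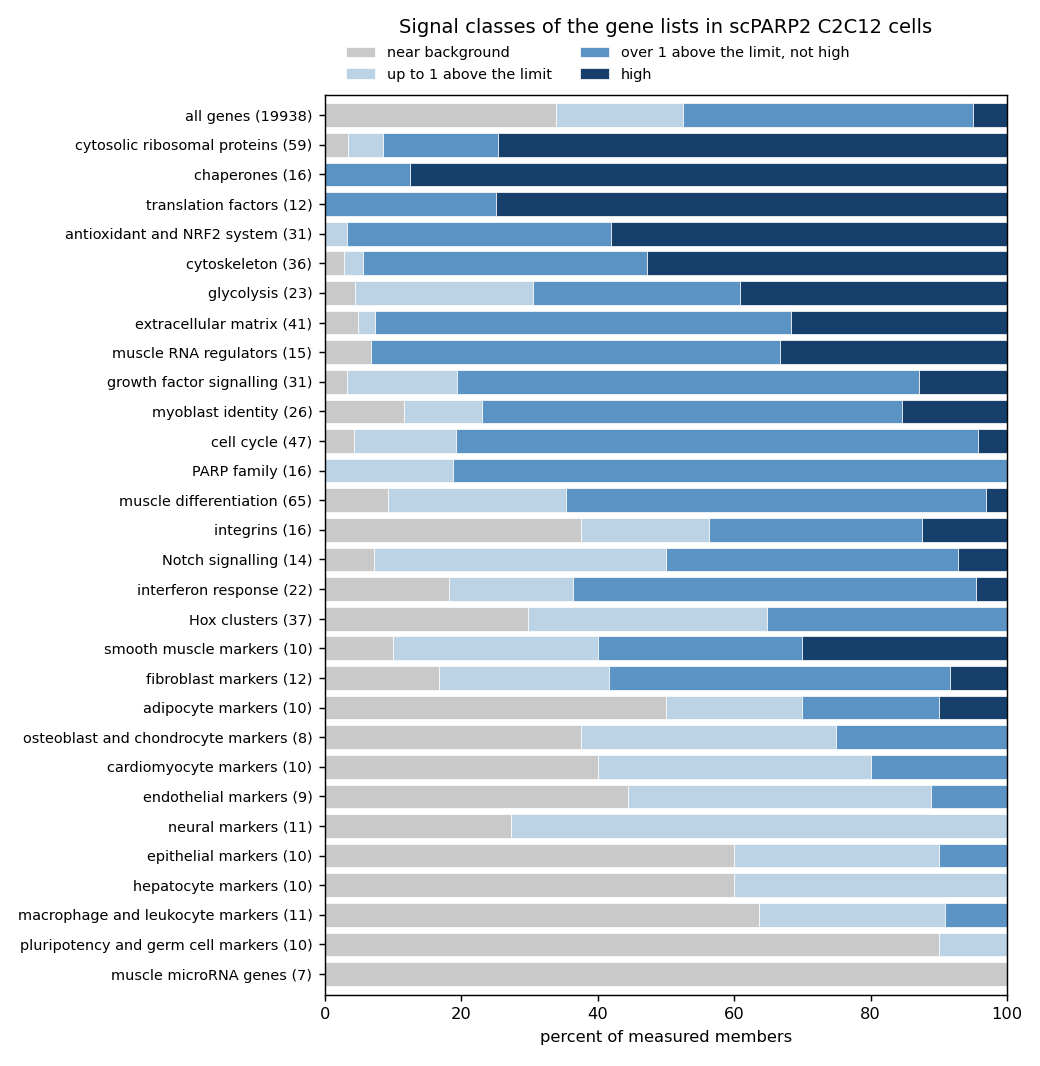
Percent of the measured members of each gene list (horizontal axis) by signal class on the scPARP2 arrays, with the number of members in brackets and all 19938 genes in the top bar. Chaperones, ribosomal proteins, translation factors and the antioxidant list hold the largest shares of high genes of the lists drawn, and muscle microRNA genes and pluripotency and germ cell markers the largest shares near background.

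The 3 arrays were close to one another. Their gene medians were 7.49 to 7.50, the correlation between arrays was 0.998 across genes for each pair (genes are not independent replicates), and only 13 to 27 genes per pair had identical values, so no array was a copy of another. The median SD between replicates was 0.0613, and it fell with signal: 0.0964 for genes near background, 0.0719 within 1 unit above the limit, 0.0454 for the other intermediate genes, 0.0249 for high genes and 0.0136 for the 30 brightest. A range over 0.5 between the arrays was found for 254 genes, of which 250 were near background. No array stood apart over all genes: replicate 1 was the farthest from the other two for 34.8% of genes, replicate 2 for 36.8% and replicate 3 for 28.3%. Among high genes these shares were 41.1%, 39.7% and 19.2%, so replicate 3 lay between or near the others more often there.

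Above the background limit, the genes of largest spread were Adam4, which read 6.53, 7.32 and 6.66, and Pdgfd, a ligand of the PDGF receptor, which read 7.54, 8.10 and 7.99. In both, replicate 2 was highest. The receptor Ror1 (7.92, 7.43 and 7.52) had replicate 1 highest, and the kininogen Kng2 (7.12, 7.66 and 7.43) spread over all 3 arrays. The other 8 of the 12 genes with the largest SD were Tdpoz2, Sprr1a, Macroh2a2, Tcl1b1, D6Ertd474e, Tmem74, Rbis and Tssk6, with SDs between 0.25 and 0.28. All 12 were intermediate.

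**Figure D5:**
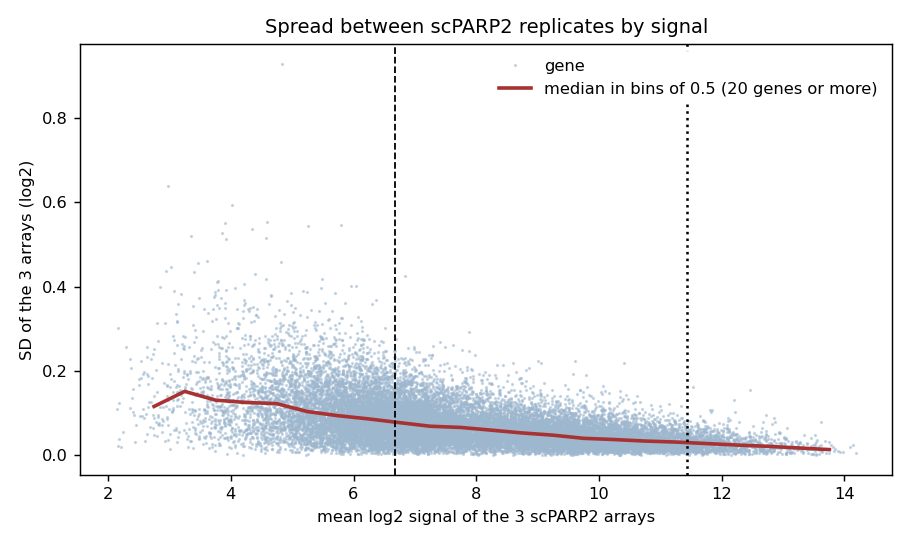
SD of the 3 scPARP2 arrays (vertical axis, log2) against their mean (horizontal axis, log2), 1 point per gene, with the median SD in bins of 0.5 that hold 20 genes or more as a red line and both limits as broken lines. The median falls from above 0.1 at the dim end to 0.0136 among the 30 brightest genes.

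Disagreement between probe sets of a gene was larger than that between arrays. For the 999 genes with several single-gene probe sets, the brightest and dimmest differed by a median of 0.81, and for 445 of them (44.5%) by over 1 log2 unit. In 260 genes the probe sets fell in different classes. Trdn, the triadin of the calcium release complex, had 19 probe sets that ran from 2.39 to 10.51, so its level of 10.51 ± 0.046 is that of its brightest probe set alone. Ufm1 ran from 3.82 to 11.27 on 2 probe sets, Ube2v1 from 4.39 to 11.80 on 3, Mitf from 2.85 to 10.05 on 2 and Pvt1 from 2.89 to 10.07 on 2.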

How the data were processed

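Total RNA of 3 scPARP2 and 3 shPARP2 C2C12 samples had been hybridized by the submitters to Affymetrix Mouse Gene 1.0 ST arrays. The deposited table holds log2 expression values per probe set, which the authors made by RMA (background correction, normalization and probe summary, per the labels). The software version and array library are not stated in the labels or methods read here. The values were used as deposited. RMA compresses differences at the dim end and gives no detection call. Samples were grouped by the labels, and every column matched a label.

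Of the probe sets, 21789 name 1 gene in the platform annotation, 1621 name several and 12146 are not named here. Symbols were updated through the gene ID (19856 of 19938 genes matched the RefSeq table). Per gene, the single-gene probe set with the highest mean over the 3 scPARP2 arrays was used. Class limits, SDs and counts were computed with pandas 2.3.3 and numpy 2.4.6 in Python 3.11.15, and figures with matplotlib 3.10.9. With 1 group there was no test. An array gives no read depth, and the number of arrays limits the precision. In a simulation that took the observed means as true and added the same noise to every gene, 98.8% of 19938 genes kept their class. It applied the same class rule again, so it checks the calculation and not the choice of limits. Alternatives were other normalizations, limits and probe-set rules, and leaving out each array.

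The description and its 35 gene lists were chosen with earlier results of these data known. Named are the markers, all members of the myogenic bHLH and myoblast identity lists, the 30 genes of highest mean, up to 5 highest and 4 lowest members of each other list, the 12 genes of largest SD above the background limit, the 5 with the most different probe sets, and genes the article names for NRF2, PARP2 and its RT-qPCR references. Other genes named with a value, such as Mymk, Ttn, Ckm, Mki67, Hmox1, Parp1 and Ptprc, were chosen after their values were seen, as were the gene families grouped by symbol.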

Additional observations from a re-analysis of the deposited data

Results flagged for a closer look

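Signal also lay in probe sets that carry no single gene name and enter none of the values above. Of the 12146 probe sets that are not named here, 5681 had a mean above the background limit of 6.67 on the scPARP2 arrays. Of the 1621 probe sets that name several genes, 914 were above it. They were singled out because a signal in them belongs to no gene of the description, and their sources were not examined.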

How the results depend on the processing

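The count of genes near background depended on the genes that set the limit. It was 6743 as reported, 5330 and 9502 when the receptor genes' 90th and 99th percentiles served as limit (6.35 and 7.35), and 3817 with vomeronasal and bitter taste receptors alone (5.95). Over all lists, 109 members were near background as reported, against 71 and 190 at these percentiles and 48 with vomeronasal and bitter taste receptors alone. Markers of other lineages near background ranged from 22 to 73 of 89, muscle differentiation genes from 1 to 18 of 65 and Hox genes from 1 to 20 of 37 over these limits. The count of high genes is set by its percentile: 997 as reported, 1994 at the 90th (10.74) and 200 at the 99th (12.63), where 44 list members were high instead of 112. Quantile normalization or median centring moved none of the 346 named levels by more than the replicate SD. The deposited values were already normalized and the array medians were 7.49 to 7.50, so these settings could change little. The largest shift under quantile normalization was 0.0059. The median named level was 8.16 with the brightest probe set, 8.02 with the average over its probe sets and 7.78 with the dimmest, and 31 and 33 named genes moved by more than their SD, by construction the genes with several probe sets, up to 8.12 for Trdn.

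Leaving out each array in turn gave 6664 to 6844 genes near background, 12097 to 12277 intermediate and 997 high in each case. The median SD was 0.0455 to 0.0540. Each of these SDs came from fewer arrays, so they are not comparable with the 0.0613 of all arrays. List members near background were 104 to 110, intermediate 383 to 391 and high 112 to 114, and the median named level was 8.17 to 8.19. Without replicate 1, Myf6 was above the limit. No paired analysis was possible because a single group was described and nothing was compared between groups. Signal close to background limits every statement on dim genes.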

Other observations

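Gene families grouped by symbol after the values were seen gave larger sets. Over all genes, 5.0% were high and 33.8% near background. Of 59 cytosolic ribosomal protein genes, 44 were high and 2 near background, Rpl3l (5.99 ± 0.044) and Rpl39l (4.84 ± 0.095), which are copies with restricted expression. All 77 mitochondrial ribosomal protein genes were above the background limit, 75 of them intermediate. Of 89 genes of the respiratory chain and ATP synthase, 23 were high and only Cox7b2 (5.24 ± 0.088) was near background. Of 39 proteasome genes, 10 were high, led by Psmb3 (13.11 ± 0.016), and Psma8 (5.68 ± 0.23) was near background. Small nucleolar RNA genes had 8 of 51 high, with Snora52 at 12.86 ± 0.088.

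Families of restricted tissues lay lower. Near background were 59 of 81 cytochrome P450 genes, 29 of 39 beta-defensins, 32 of 44 keratin-associated proteins, 27 of 48 keratins, 19 of 32 interleukins and 196 of 298 microRNA genes, against 33.8% of all genes. Cyp20a1 stood apart among the P450 genes at 10.61 ± 0.037. Of 87 potassium channel genes, none was high and 37 were near background (42.5%, against 33.8% of all genes). The 334 solute carriers did not lie lower and had shares close to those of all genes. Near background were 114 (34.1%, against 33.8%) and high were 25 (7.5%, against 5.0%). Among the high were the amino acid transporter subunit Slc3a2 (13.58 ± 0.013) and Slc38a2 (13.31 ± 0.014). Promoter windows of genes near background held a median of 4 CpG dinucleotides in 300 bases, those of intermediate genes 20 and of high genes 23.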
